A study of Homo sapiens with 4 samples.

Results

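IFIT1, IFIT2, IFIT3, IFIT5 and RSAD2 were described across a pool of OVCAR5 cells, a human ovarian carcinoma cell line, that had been cultured with supernatant taken from tumor cell and T cell cocultures. The genes were chosen by symbol from the deposited list of features, and all 5 were found among its 36602 genes. The pool held 24 conditions, given by the labels as undiluted supernatant, supernatant diluted 5, 25, 125 or 625 times and no supernatant, each for 2, 6, 12 or 24 h. Every condition was 1 culture of the same line, marked with a pair of the 10 antibody-borne DNA tags (hashtags HTO1 to HTO10) and all were read together by 3′ sequencing of single-cell RNA in droplets. The labels name the conditions of the pool but not the tag pair of each, so tag pairs are compared here by their tags alone, with no dose or time. A pair therefore stands for 1 culture, and no p-value is given.

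The IFIT proteins are cytosolic RNA-binding proteins of the innate antiviral response. IFIT1 binds the 5′ end of RNA that lacks the host's cap methylation and keeps it from being translated, IFIT2 and IFIT3 assemble with it, and IFIT3 stabilises it. IFIT5 binds 5′-phosphorylated RNA on its own, and RSAD2 (viperin) is a radical SAM enzyme that makes a chain-terminating nucleotide from CTP. Their genes are classical targets of type I and type III interferon, whose receptors act through transcription factors on a DNA element called the interferon-stimulated response element (ISRE). IRF factors switched on by RNA sensors can act on the same element.

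Counts are of unique molecular identifiers (UMIs), 1 for each RNA molecule caught. Of 10660 barcodes, 6408 (60.1%) were kept, having 1000 genes or more and no more than 20% mitochondrial UMIs, and 5298 of these (82.7%) carried a clear tag pair. The 24 pairs held 137 to 272 cells and 1863154 to 3904112 UMIs each. A count of 3 UMIs thus stood for 0.768 to 1.61 CPM, the count in each 1000000 gene UMIs of the pair. Median UMIs per cell ran from 9389 to 14795 and the median mitochondrial share from 8.67% to 13.8%, with HTO3/HTO9 the shallowest pair and the one with the highest mitochondrial share. Epithelial marker genes summed to between 1894 and 3739 CPM in every pair. KRT18, KRT8 and KRT7 had the highest means of that list (1589, 706 and 519.5 CPM). CDH1, PAX8 and MUC16 had means of only 2.26, 3.09 and 0.0571 CPM. The T cell list reached at most 6.98 CPM, and 5 of its 10 genes (CD3E, CD3G, CD2, CD8B and PTPRC) had no UMI. All barcodes carried 1 suffix, so cells could not be tied to either of the 2 gene expression libraries.

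The 4 IFIT genes lie in 1 cluster on the plus strand of chromosome 10 (GENCODE 29, GRCh38), IFIT2 at chr10:89283694-89309276, IFIT3 at chr10:89327894-89340971, IFIT1 at chr10:89392546-89406486 and IFIT5 at chr10:89414586-89421001. RSAD2 lies on the plus strand at chr2:6865806-6898239. RefSeq windows of 300 bases around gene starts (GRCh38.p14) matched 4 of the 5 genes: IFIT1, IFIT3, IFIT5 and RSAD2. They were searched on both strands for the ISRE core (GAAA, any 2 bases, GAAA), which is in 3.57% of 35116 such windows, for the gamma-activated site TTCNNNGAA (7.66%) and for the kappaB pattern (GGG, any 5 bases, CC; 58.7%). The windows below are shown because they carry the ISRE core, written in capitals as it reads on the plus strand. Each gives the 190 bases from position -180 to position 10 around the start, 5′ to 3′ on the plus strand.
IFIT1, chr10:89392443-89392632: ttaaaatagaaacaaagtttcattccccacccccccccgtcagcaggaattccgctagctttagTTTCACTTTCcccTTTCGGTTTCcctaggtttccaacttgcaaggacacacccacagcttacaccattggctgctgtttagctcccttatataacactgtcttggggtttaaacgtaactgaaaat
IFIT3, chr10:89327817-89328006: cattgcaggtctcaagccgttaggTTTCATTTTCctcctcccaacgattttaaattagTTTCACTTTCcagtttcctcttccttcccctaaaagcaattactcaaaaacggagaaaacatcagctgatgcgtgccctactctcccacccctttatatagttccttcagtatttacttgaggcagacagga
IFIT5, chr10:89414388-89414577: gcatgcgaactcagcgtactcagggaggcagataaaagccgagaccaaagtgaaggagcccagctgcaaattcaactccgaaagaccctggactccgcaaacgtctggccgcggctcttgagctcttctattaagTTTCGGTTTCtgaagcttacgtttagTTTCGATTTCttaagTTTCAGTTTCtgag
RSAD2, chr2:6877597-6877786: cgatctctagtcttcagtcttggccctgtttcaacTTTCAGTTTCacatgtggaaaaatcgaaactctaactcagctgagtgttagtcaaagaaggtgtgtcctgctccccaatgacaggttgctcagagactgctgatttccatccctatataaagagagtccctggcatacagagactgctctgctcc
IFIT1 had the core at positions -116 to -107 and -103 to -94, and also a kappaB match at -73 to -64. IFIT3 had it at -156 to -147 and -122 to -113 of the start shown, and at -94 to -85 and -51 to -42 of its other listed start. In IFIT5 the 3 cores lay close to the start, at -45 to -36, -19 to -10 and -4 to 6. RSAD2 had 1 core, at -145 to -136 of the downstream start, and none in the window of its upstream start. No window of the 4 genes held the gamma-activated pattern. These are letter matches, with no measurement of binding.

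All 5 genes were highest in pairs that carried HTO9, and 4 of them peaked in the same pair, HTO4/HTO9. A UMI counts 1 molecule by its 3′ end, so gene length does not enter, while the capture of each gene's 3′ end was not measured. Over the 5 genes, HTO4/HTO9 reached 732 CPM and HTO7/HTO10 had 32.6 CPM, with a median of 277 CPM over the 24 pairs. The ratio of highest to lowest was 22.4 (95% interval 18.2 to 27.9, counting error only). Over all cells, HTO7/HTO10 stood apart at the low end: the next pair, HTO5/HTO10, had 89.6 CPM, and without HTO7/HTO10 the ratio was 8.16.

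IFIT3 carried most of the molecules, with 13989 of the 20618 UMIs of the 5 genes and a median share of 67.3% over pairs. It was at 489.8 CPM in HTO4/HTO9 and 11.8 CPM in HTO7/HTO10, with a median of 195 CPM. The ratio of 41.5 (29.5 to 60.1) was 11.3 without HTO7/HTO10, because the second-lowest pair, HTO4/HTO8, had 43.3 CPM. In the order of the 24 levels, 17 of 23 neighbouring pairs did not differ beyond counting error. Among the 6 steps that did were HTO4/HTO9 over HTO5/HTO9 (391 CPM) at the top and HTO4/HTO8 over HTO7/HTO10 at the bottom. The bottom step rested on 2 cells of HTO4/HTO8 with at least 20 UMIs of the 5 genes, which held 64 of its 103 IFIT3 UMIs. The other 163 cells of HTO4/HTO8 were at 16.7 CPM (11.9 to 22.8), an interval that overlaps that of HTO7/HTO10 (8.18 to 16.5). The second-lowest level used for the ratio of 11.3 has the same limit.

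IFIT2 was at 116 CPM in HTO4/HTO9 and 5.90 CPM in HTO7/HTO10, with a median of 24.9 CPM and a ratio of 19.6 (12.1 to 34.0). IFIT1 was at 55.0 CPM in HTO4/HTO9 and 3.47 CPM in HTO7/HTO10, with a median of 19.6 CPM and a ratio of 15.8 (8.39 to 33.6). Without HTO7/HTO10 the IFIT1 ratio was 9.33. The second-highest pair differed between them: it was HTO3/HTO9 for IFIT2 (79.6 CPM) and HTO2/HTO9 for IFIT1 (47.8 CPM). HTO2/HTO9 was the 15th of 24 pairs by the summed level of the 5 genes. For IFIT1, 22 of 23 neighbours in the order did not differ beyond counting error, and for IFIT2 21 of 23.

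RSAD2 was the scarcest, with 765 UMIs in all. It was at 35.0 CPM in HTO4/HTO9 and 1.10 CPM, from 3 UMIs, in HTO3/HTO8, with a median of 9.75 CPM and a ratio of 31.8 (10.6 to 156). IFIT5 had the narrowest range. It was at 47.2 CPM in HTO9/HTO10 and 8.58 CPM in HTO1/HTO10, with a median of 28.7 CPM and a ratio of 5.50 (3.67 to 8.52). For both genes, each of the 23 steps between neighbours was within counting error. HTO9/HTO10, the highest pair of IFIT5, held 13.6 CPM of IFIT2, below the IFIT2 median.

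**Figure D1:**
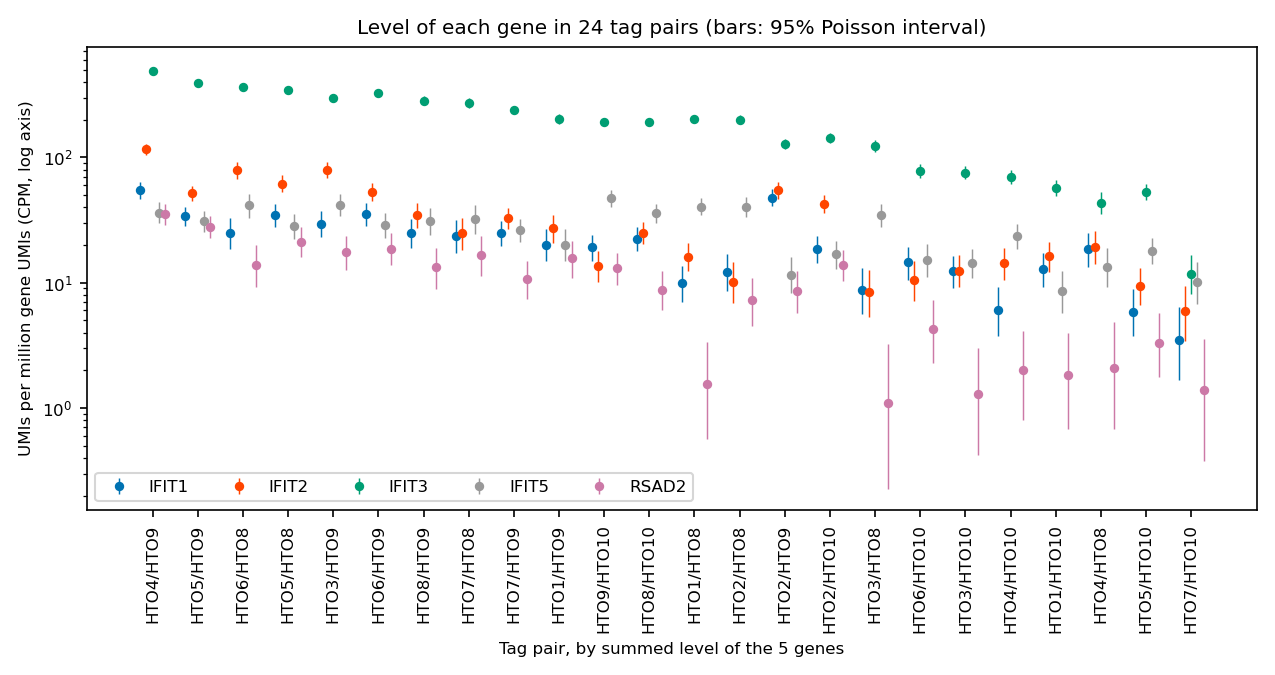
Level of IFIT1, IFIT2, IFIT3, IFIT5 and RSAD2 in CPM on a log axis in each of the 24 tag pairs, which are ordered by the sum of the 5 genes, with exact 95% Poisson intervals (counting error only). IFIT3 lies above the other genes in all pairs shown and spans 489.8 to 11.8 CPM, IFIT5 stays between 47.2 and 8.58 CPM, and IFIT1 and IFIT2 stand out in HTO2/HTO9 against their neighbours in the order.

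Ranges were set beside those of all genes as the difference of log2(CPM + 10) between the highest and the lowest pair. Of 5767 genes averaging 20 CPM or more over the pairs, 238 (4.13%) ranged by 4-fold or more. Of the 5 genes, 4 passed the minimum and 3 ranged by 4-fold or more: IFIT3 (4.52 on the log2 scale, rank 26 of 5767), IFIT2 (2.98, rank 90) and IFIT1 (2.27, rank 173). IFIT5 ranged by 1.62 and did not reach the threshold. RSAD2 failed the minimum with a mean of 10.9 CPM. The median range of the genes tested was 0.74.

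The same level could come from few cells or from many. Cells with at least 20 UMIs of the 5 genes (called high cells here) numbered 175 of 5298, or 3.30% (exact binomial 95% interval 2.84 to 3.82), and held 33.7% of the UMIs of the 5 genes. At the other end, 1436 cells (27.1%) had none. The cut marks a range and not a cell type, since 46 cells had 20 to 24 UMIs and 46 cells had 15 to 19 UMIs. The largest count in a cell was 177, in HTO2/HTO10, against a median of 1 in that pair. High cells had a median of 15617 UMIs, against 13147 in the remaining cells. Their median mitochondrial share was 10.3%, against 10.5%, and their third-highest tag had a median of 32.0 UMIs, against 30.0. Barcodes of mixed tag pairs had been left out, while doublets within a culture cannot be seen by tags. With every cell thinned to 3000 UMIs and at least 5 UMIs counted as high, there were 177 high cells, and the highest share was 13.2%, in HTO4/HTO9.

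**Figure D2:**
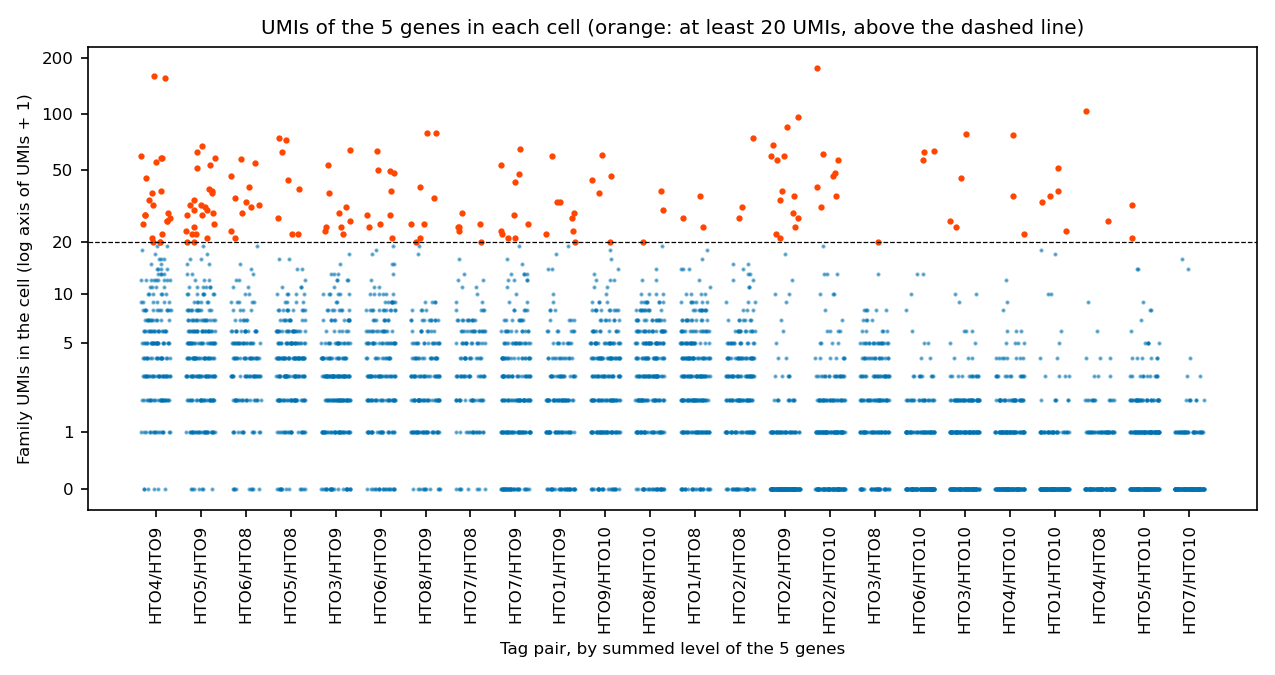
UMIs of the 5 genes in each of 5298 cells (1 point a cell, log axis of UMIs + 1, spread sideways for view) by tag pair, in the order of the summed level; orange points are the 175 cells with at least 20 UMIs. In HTO4/HTO9 and its neighbours most cells carry some UMIs, whereas in HTO2/HTO9 66.0% of cells have none and 14 cells lie above the dashed line.

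The share of high cells ran from 10.1% in HTO4/HTO9 (23 of 228 cells, 6.50 to 14.8) down to 0 of 203 cells in HTO7/HTO10, which allows a share of up to 1.48%. HTO5/HTO9 had 9.47% (25 of 264 cells) and HTO6/HTO8 6.83% (11 of 161 cells). The median share over pairs was 2.81%, and 23 of the 24 pairs had at least 1 such cell. At least 10 high cells were found in 7 pairs, 6 of which carried HTO9, a tag that 9 of the 24 pairs carry.

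The remaining cells differed between pairs as well. Their summed level was 442 CPM (417 to 468) in HTO4/HTO9 and 32.6 CPM (26.4 to 40) in HTO7/HTO10, with a median of 232 CPM and a ratio of 13.5 (11.0 to 16.9). The intervals of HTO1/HTO10 (42.4 CPM, 35.6 to 50.2) and HTO4/HTO8 (42.8 CPM, 34.9 to 52.1) overlapped that of HTO7/HTO10. Over all cells HTO1/HTO10 and HTO4/HTO8 were at 96.9 and 96.6 CPM, with 5 and 2 high cells, so HTO7/HTO10 did not stand apart among remaining cells. Both the share of high cells and the level of the rest were highest in HTO4/HTO9, though the share of HTO5/HTO9 was within its interval. With at least 2000 genes and no more than 10% mitochondrial UMIs a cell, the highest share was in HTO5/HTO9 and the highest rest in HTO3/HTO9. With high cells counted from 10 UMIs, the highest rest was in HTO5/HTO8. With the original cut for high cells, leaving these cells out lowered the summed level of HTO4/HTO9 from 732 CPM to 442 CPM.

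Pairs of similar summed level were made up differently. HTO2/HTO9 had 250.5 CPM, but its remaining 230 cells were at only 53.9 CPM (46.0 to 62.8), and 14 high cells at 2910 CPM held 80.0% of its UMIs. HTO2/HTO8 had 269 CPM with 229.7 CPM in the rest, and 3 high cells held 16.2% of its UMIs. HTO8/HTO10 had 283 CPM with 264 CPM in the rest, and 3 high cells held 8.29%. The interval of the high share was 3.17 to 9.44% in HTO2/HTO9, 0.293 to 4.08% in HTO2/HTO8 and 0.236 to 3.30% in HTO8/HTO10, so that the share of HTO2/HTO9 overlaps both others at its lower edge. The rest was lower in HTO2/HTO9 than in both, beyond counting error. The intervals of the rest of HTO2/HTO8 (213 to 248 CPM) and of HTO8/HTO10 (247 to 281 CPM) met only at their edges. That overlap does not settle whether these levels differ. HTO2/HTO9, HTO1/HTO10, HTO2/HTO10 and HTO4/HTO8 were the 4 pairs in which high cells held over 50% of the UMIs. HTO4/HTO8 rested on 2 cells, 1 of which, with 104 UMIs, held 45.2% of the UMIs of its pair. In HTO3/HTO8 1 high cell held 4.17% of the UMIs, the lowest share among pairs with any.

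**Figure D3:**
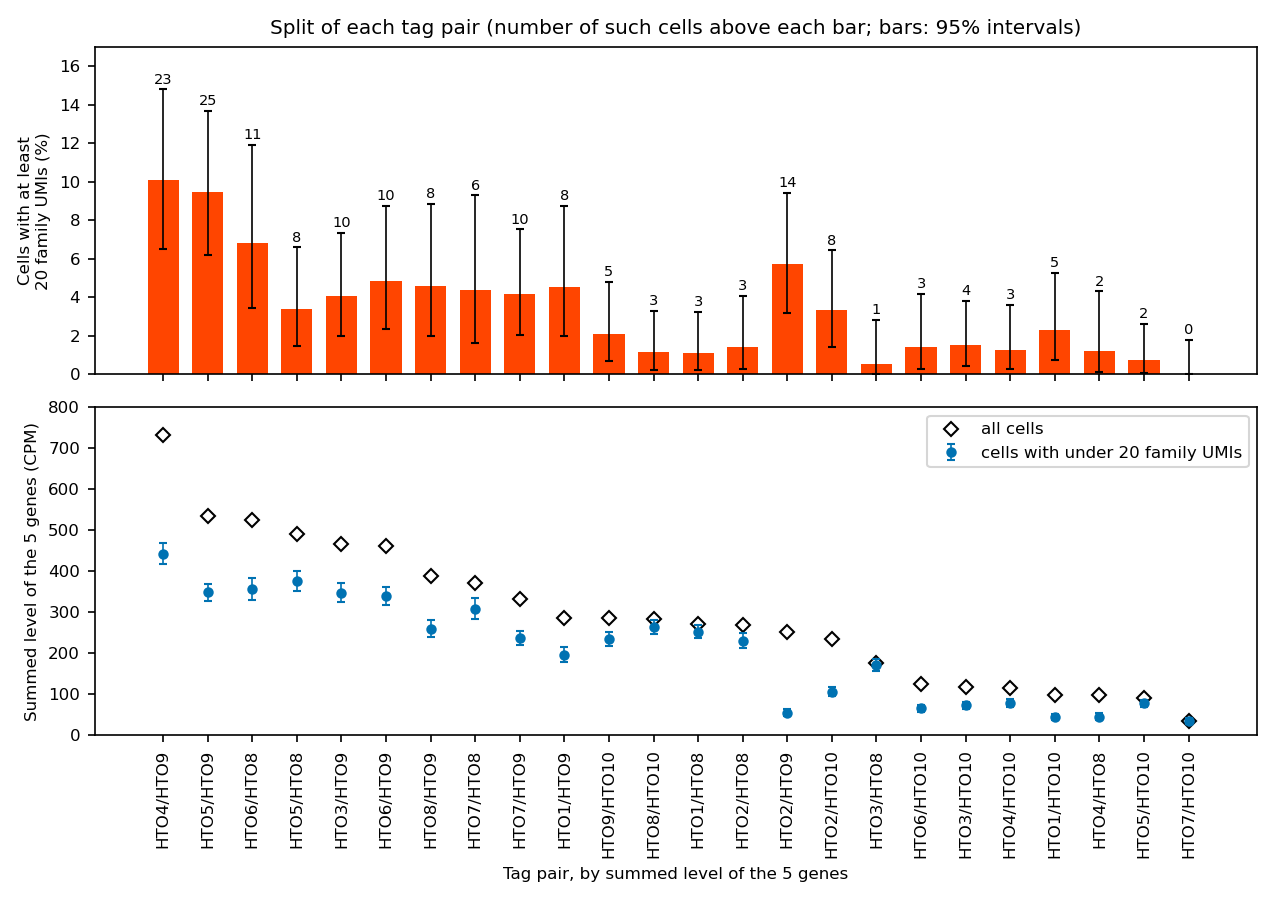
Upper panel, percent of cells with at least 20 UMIs of the 5 genes in each tag pair, with exact 95% binomial intervals and the number of such cells above each bar; lower panel, summed CPM of the 5 genes in all cells (diamonds) and in the remaining cells (circles, 95% Poisson intervals). The gap between diamond and circle is widest in HTO4/HTO9 (732 and 442 CPM) and, among pairs below HTO7/HTO9 in the order, in HTO2/HTO9 (250.5 and 53.9 CPM).

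The genes split unevenly between the classes of cells. The classes were set with these genes, so the differences that follow are a description. RSAD2 had 70.7% of its UMIs in the high cells, IFIT2 60.5%, IFIT1 49.3% and IFIT3 29.1%, whereas IFIT5 had 7.29%. RSAD2 was at 188 CPM in high cells and 3.19 CPM in the remaining cells, and had a UMI in 62.9% of high cells and in 2.87% of the remaining cells. IFIT2 was at 501 CPM in high cells and 13.4 CPM in the remaining cells, and IFIT1 at 264 CPM and 11.1 CPM. IFIT3 was at 1418 CPM in high cells and still at 141 CPM in the remaining cells, where 62.4% of cells had a UMI. IFIT5 was at 49.5 CPM in high cells and 25.7 CPM in the remaining cells.

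Within the remaining cells, IFIT3 kept the widest measured ratio, 333 CPM in HTO4/HTO9 and 11.8 CPM in HTO7/HTO10 (28.2, 20 to 41.0). IFIT2 was at 45.8 CPM in HTO3/HTO9 and 1.75 CPM in HTO4/HTO10 (26.2, 11.7 to 72.9), and IFIT1 at 26.7 CPM in HTO6/HTO9 and 3.01 CPM in HTO6/HTO10 (8.87, 4.40 to 20.3). IFIT5 was at 45.6 CPM in HTO9/HTO10 and 8.17 CPM in HTO1/HTO10 (5.58, 3.67 to 8.81), close to its ratio over all cells. RSAD2 was at 12.8 CPM in the remaining cells of HTO4/HTO9 and had no UMI in those of HTO4/HTO10, an at least 14.7-fold difference against a floor of 3 counts. Over all cells HTO4/HTO9 was the highest pair of IFIT1 and IFIT2. Its remaining cells were at 25.3 CPM of IFIT1 (19.6 to 32.1), within the interval of HTO6/HTO9 (20.7 to 34.0), and at 34.7 CPM of IFIT2 (28.0 to 42.6), which overlaps that of HTO3/HTO9 (37.6 to 55.2). The highest pair of IFIT3, IFIT5 and RSAD2 was the same as over all cells.

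Counting each gene by itself gave the same kind of picture. At least 5 UMIs of IFIT3 were seen in 886 cells, of IFIT2 in 122, of IFIT1 in 61, of RSAD2 in 46 and of IFIT5 in 3. These cells held 63.8% of all IFIT3 UMIs, 58.3% of IFIT2, 54.9% of RSAD2, 35.9% of IFIT1 and 0.924% of IFIT5 UMIs. In HTO2/HTO9, 11 of 244 cells held 81.5% of the IFIT2 UMIs, and 11 cells held 75.6% of the IFIT1 UMIs. In HTO4/HTO9, 107 of 228 cells (46.9%, 40.3 to 53.6) had at least 5 IFIT3 UMIs and 14 (6.14%, 3.40 to 10.1) at least 5 IFIT2 UMIs, against 2 and 1 of 203 cells in HTO7/HTO10.

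Cells with at least 5 UMIs of a gene were called rich in it, with all pairs and depths pooled. Cells rich in IFIT1, IFIT2 or RSAD2 mostly held the other 2 and IFIT3, whereas cells rich in IFIT3 mostly did not hold the rest. The same cut took in 886 cells for IFIT3, the most abundant gene, and 122 for IFIT2, so it selected less strictly for IFIT3. In the 89 cells with at least 20 IFIT3 UMIs, IFIT1 was at 324 CPM, IFIT2 at 635 CPM and RSAD2 at 172 CPM. Of the 886 cells with at least 5 IFIT3 UMIs, 39.2% had an IFIT1 UMI, 41.9% an IFIT2 UMI, 42.6% an IFIT5 UMI and 19.3% an RSAD2 UMI. The 3 cells with at least 5 IFIT5 UMIs had none of IFIT1, IFIT2 or RSAD2. Of the 61 cells with at least 5 IFIT1 UMIs, 98.4% had an IFIT2 UMI, against 14.3% of other cells, and 59.0% had an RSAD2 UMI, against 4.22%. Of the 46 cells with at least 5 RSAD2 UMIs, 89.1% had an IFIT2 UMI, against 14.7% of other cells, and all 46 had an IFIT3 UMI, against 63.3%. The overlap was incomplete at the higher count: 157 cells had at least 5 UMIs of IFIT1, IFIT2 or RSAD2, 65 of at least 2 of these genes and 7 of all 3. IFIT3 alone, with no UMI of the other 4 genes, was found in 1478 cells. UMIs of all 5 genes were found in 63 cells, 53 of them high cells.

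Detection followed depth, so it was repeated with every cell thinned to 3000 UMIs, which left out 37 shallower cells. IFIT3 then had a UMI in 65.6% of cells in HTO4/HTO9 (59.1 to 71.8; 95.2% unthinned) and in 3.96% in HTO7/HTO10 (1.73 to 7.65; 7.88% unthinned). IFIT2 had one in 16.7% of cells in HTO4/HTO9 (12.1 to 22.2; 32.0% unthinned) and in 1.49% in HTO7/HTO10 (0.307 to 4.28; 5.91% unthinned). No cell type known to lack these genes was in the pool. The share in HTO7/HTO10, whose median depth was 13323 UMIs beside 12472 in HTO4/HTO9, includes any UMIs from free RNA.

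Other genes were read along the IFIT3 count of the cell, which pools all pairs and so mixes cultures. IFIT2 was at 3.83 CPM in the 1925 cells with no IFIT3 UMI, 13.2 CPM at 1 to 4 UMIs, 31.9 CPM at 5 to 9, 206 CPM at 10 to 19 and 635 CPM in the 89 cells with at least 20. OASL, an antiviral protein related to the RNA-activated oligoadenylate synthetases, followed closely at 2.88, 14.4, 50.4, 209 and 574 CPM. IFIT5 moved over a narrow range, at 16.0, 29.5, 36.8, 41.4 and 51.0 CPM. CXCL10, a T cell attractant, was at 182, 924, 1515, 1872 and 1951 CPM. IFIT2 and IFIT1 thus rose most steeply above 9 IFIT3 UMIs, IFIT1 from 24.5 CPM at 5 to 9 to 117 CPM at 10 to 19. OASL and RSAD2 climbed steeply from the first group on, RSAD2 at 0.632, 3.21, 15.4, 86.7 and 172 CPM. Above 9 IFIT3 UMIs, MX1, IFIT5 and CXCL10 rose much less than these genes.

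**Figure D4:**
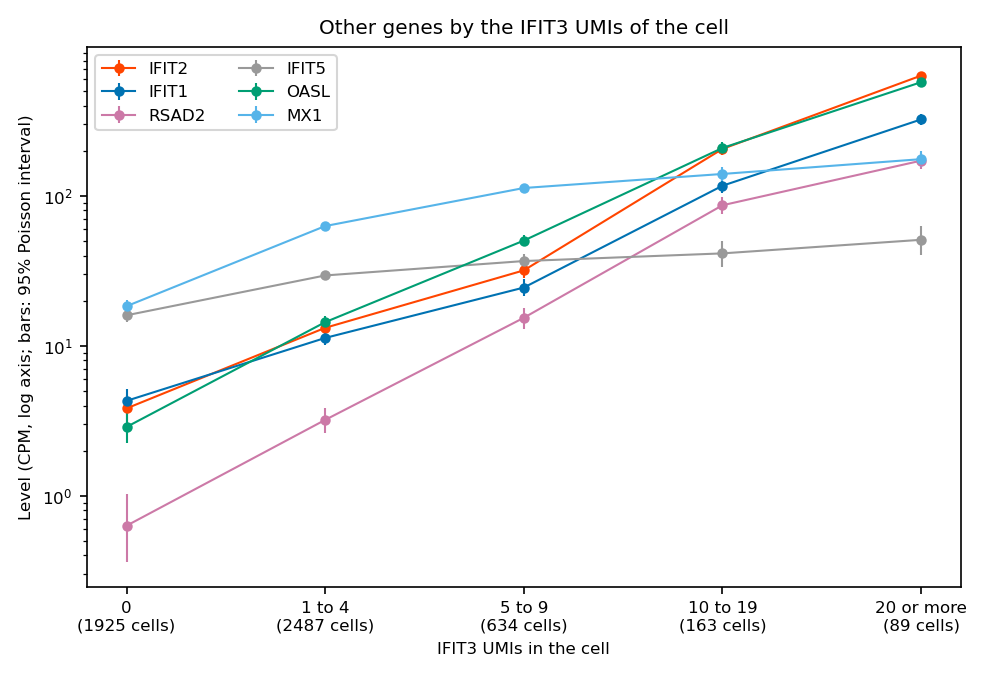
Level (CPM, log axis, 95% Poisson intervals) of IFIT2, IFIT1, RSAD2, IFIT5, OASL and MX1 in cells grouped by their IFIT3 UMIs, all 24 tag pairs together, with the number of cells below each group. IFIT2, IFIT1, RSAD2 and OASL climb over the whole axis, IFIT2 with 3.83 CPM in the first group and 635 CPM in the last, whereas IFIT5 and MX1 flatten to 51.0 and 176 CPM.

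All genes were then compared between high and remaining cells within the 7 pairs that had at least 10 high cells (103 high and 1486 remaining cells), as means of CPM over pairs. Median depth was 14938 UMIs in the high cells and 12172 in the remaining cells, and the median mitochondrial share was 11.3% and 11.6%. The part of depth in the differences that follow was not tested. Of 5745 genes averaging at least 20 CPM, 48 (0.836%) were at least 2-fold higher in the high cells on the log2(CPM + 10) scale and 10 (0.174%) at least 2-fold lower. In all 7 pairs, 168 genes (2.92%) were higher in the high cells. These counts include the 5 genes that set the classes, of which 4 were 2-fold higher and all 5 higher in all 7 pairs.

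Of 39 other interferon-induced antiviral genes tested, 12 were at least 2-fold higher in the high cells, none was 2-fold lower, and 17 were higher in all 7 pairs. ISG15, a ubiquitin-like protein, was at 3203 CPM in high cells and 866 CPM in the remaining cells. OASL was at 466 CPM in high cells and 32.2 CPM in the remaining cells, and HERC5, the ligase that attaches ISG15 to proteins, at 194 CPM and 9.47 CPM. The RNA sensors IFIH1 (MDA5) and DDX58 (RIG-I) were at 294 CPM and 182 CPM in high cells, against 79.2 CPM and 43.0 CPM in the remaining cells. ZC3HAV1, which binds CpG-rich viral RNA, was at 351 CPM in high cells and 82.9 CPM in the remaining cells. OASL, HERC5, IFIH1, DDX58 and ZC3HAV1 were picked out after their values were seen.

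Of the 4 most abundant genes of the same list, ISG15 alone was 2-fold higher. IFI27, a small membrane protein, was at 953 CPM in high cells and 835 CPM in the remaining cells, higher in 5 of 7 pairs. LY6E, a membrane protein that restricts coronavirus entry, was at 540.0 CPM in high cells and 617 CPM in the remaining cells. RNF213, a giant ubiquitin ligase, was at 494 CPM in high cells and 546 CPM in the remaining cells. ISG20, an exonuclease picked later, passed the mark, at 860.0 CPM in high cells and 419.6 CPM in the remaining cells, and was higher in all 7 pairs. MX1, a dynamin-like GTPase also picked later, was at 175 CPM in high cells and 109 CPM in the remaining cells, higher in all 7 pairs but under 2-fold. The median difference over the 39 genes was 0.29 on the log2 scale, beside 0 over all genes tested.

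Upstream, none of 6 interferon receptor and kinase genes was 2-fold higher or lower in the high cells. Of the transcription factors, IRF1 was at 1033 CPM in high cells and 856 CPM in the remaining cells, STAT3 at 69.5 CPM and 77.0 CPM, and IRF3 at 48.2 CPM and 47.8 CPM. Of the receptor chains, IFNAR1 was at 40.9 CPM in high cells and 41.6 CPM in the remaining cells, IFNAR2 at 27.8 CPM and 29.8 CPM, and IFNGR2 at 52.6 CPM and 61.3 CPM. JAK1, the kinase shared by the interferon receptors, was at 78.6 CPM in high cells and 77.2 CPM in the remaining cells. JAK2, which serves the receptor of interferon gamma and was picked later, was at 37.0 CPM in high cells and 16.2 CPM in the remaining cells, higher in all 7 pairs but short of the mark on the log2(CPM + 10) scale. Among 6 genes of negative feedback, ISG15 alone passed, beside PTPN2 (55.3 CPM in high cells and 60.5 CPM in the rest), SOCS3 (42.5 and 29.5 CPM) and PIAS1 (37.9 and 30.8 CPM).

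Genes driven mainly by interferon gamma gave 0 of 18 at least 2-fold higher and 0 lower. CXCL10 was at 2304 CPM in high cells and 1614 CPM in the remaining cells, WARS, a tryptophanyl-tRNA synthetase, at 2087 CPM and 1216 CPM, IDO1, which degrades tryptophan, at 1737 CPM and 1263 CPM, and CD74, the chaperone of MHC class II, at 932 CPM and 838 CPM. Of the 18 genes, 3 were higher in the high cells of all 7 pairs, WARS among them, beside 2.92% of all genes tested. ICAM1, an adhesion molecule induced by NF-kappaB, was at 580.2 CPM in high cells and 379 CPM in the remaining cells, SOD2 at 731 CPM and 613 CPM, NFKBIA at 419.5 CPM and 271 CPM, and BIRC3 at 245 CPM and 278 CPM. Of 13 NF-kappaB targets, the 3 that passed the mark are named for that reason: TNFAIP3, an inhibitor of the pathway, was 2-fold higher, at 79.9 CPM and 32.7 CPM, while the neutrophil attractants CXCL1 (73.0 CPM and 163 CPM) and CXCL2 (46.9 CPM and 108 CPM) were 2-fold lower. CXCL1 was nonetheless higher in the high cells of 2 of the 7 pairs. IL6, a target below the minimum of 20 CPM and picked later, was at 29.2 CPM in high cells and 4.14 CPM in the remaining cells, higher in 6 of 7 pairs. None of 12 S phase genes and none of 13 genes of G2 and mitosis passed the mark in either direction. Of the most abundant S phase genes, TYMS was at 179 CPM in high cells and 218 CPM in the remaining cells, RRM2 at 157 CPM and 161 CPM, MCM3 at 106 CPM and 134 CPM, and MCM4, a helicase subunit, at 131 CPM and 183 CPM, lower in all 7 pairs. Of the mitotic genes, TOP2A was at 402 CPM in high cells and 308 CPM in the remaining cells, AURKA at 308 CPM and 217 CPM, UBE2C at 279 CPM and 219 CPM, and TPX2, a spindle factor, at 358 CPM and 277 CPM, higher in all 7 pairs. The median log2 difference was -0.27 for the S phase list and 0.37 for the G2 and mitosis list, beside 0 over all genes.

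**Figure D5:**
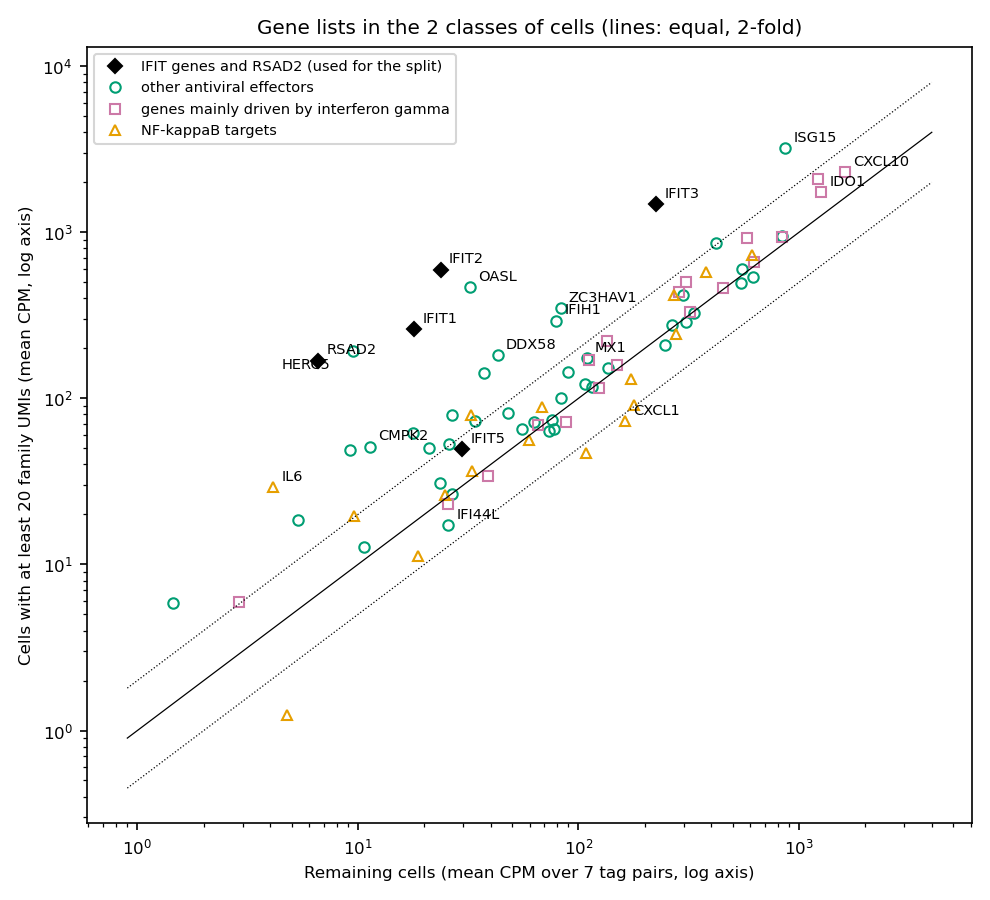
Mean CPM over 7 tag pairs in cells with at least 20 UMIs of the 5 genes (vertical) and in the remaining cells (horizontal), both on log axes, for the 5 genes and 3 lists; the solid line marks equal levels and the dotted lines 2-fold. OASL (466 and 32.2 CPM) and HERC5 (194 and 9.47 CPM) lie above the upper dotted line, as do IFIT1, IFIT2, IFIT3 and RSAD2 but not IFIT5. Most genes driven by interferon gamma lie between the dotted lines, many of them near the solid line.

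Transcripts of interferons themselves were rare. IFNL1, a type III interferon, had a UMI in 18 of 175 high cells and in 2 of 5123 remaining cells, with 45 and 3 UMIs and at most 10 in a cell. IFNB1, a type I interferon, had UMIs in 3 high cells and in no other cell. IFNL2 and IFNL3 were each seen in 1 high cell and in no remaining cell, while IFNE was seen in 17 remaining cells and in no high cell. IFNG, IFNA1, IFNA2, IFNW1 and IFNK had no UMI in 5298 cells. CCL5, a chemokine and the next largest difference after HERC5, was at 616 CPM in high cells (13.3 to 1724 CPM over the 7 pairs) and 59.6 CPM in the remaining cells, and was picked after its value was seen.

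Genes beside the 5 in the genome were checked as well. LIPA, a lysosomal lipase gene on the minus strand whose annotation spans IFIT2, IFIT3, IFIT1B and IFIT1, was at 21.5 CPM in HTO3/HTO9 and 9.16 CPM in HTO9/HTO10, and at 15.1 CPM in high cells and 14.1 CPM in the remaining cells. The strand setting of the counting is not given in the sources used here, so reads of the overlapping genes cannot be told apart with certainty. IFIT1B, a paralogue of IFIT1, had a mean of 0.0207 CPM. CMPK2, a mitochondrial nucleotide kinase whose start overlaps that of RSAD2 on the other strand, was at 25.7 CPM in HTO4/HTO9 and 0.347 CPM, from 1 UMI, in HTO7/HTO10. It was at 51.2 CPM in high cells and 11.3 CPM in the remaining cells, higher in all 7 pairs. CH25H, cholesterol 25-hydroxylase, was at 8.59 CPM in high cells and 0.385 CPM in the remaining cells, with UMIs in 5 of 103 and 6 of 1486 cells. The antisense transcript NRIR had a mean of 0.0109 CPM, and STAMBPL1, FAS, ACTA2, PANK1, SLC16A12, RNF144A and KIF20B had means between 0.195 and 74.8 CPM. KIF20B, a mitotic kinesin, was at 108 CPM in HTO7/HTO10, its highest pair, where the sum of the 5 genes was lowest. It was at 81.5 CPM in high cells and 56.4 CPM in the remaining cells, higher in all 7 pairs.

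Likeness over the 24 pairs was measured as the mean absolute difference of centred log2(CPM + 10), which is 0 for equal profiles and had a median of 0.58 over all genes. The nearest genes to the mean profile of the 5 were LMO7 (0.20), GJB2 (0.22), CARHSP1, MVP, BLVRA and SAMD9 (0.23 each), ACSL5, PSMA6 and CPNE1 (0.24 each) and IFITM3 (0.25). IFIT3 lay nearest to MX1 (0.31), IFIH1 (0.32) and APOL1 (0.32), and IFIT2 to OASL (0.32), IFIT1 (0.32) and ISG15 (0.34). IFIT1 lay nearest to GJB2 (0.24), SAMD9 and CPNE1 (0.25 each), RSAD2 to SAMD9 (0.19), MVP and LMO7 (0.25 each), and IFIT5 to OGFR, BAK1 and MSRB1 (0.16 each). Between the 5 genes the difference was smallest for IFIT1 and RSAD2 (0.27) and largest for IFIT2 and IFIT5 (0.68). The measure depends on the width of a gene's range: with profiles scaled to equal spread, 2 of the 10 nearest genes were shared.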

How the data were processed

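The authors' deposited matrix holds counts of UMIs for 36602 genes and 10 hashtags in 10660 barcodes. Per the file headers the software was Cell Ranger 5.0.1. The processing notes of the submitters name version 2.1.1 and the build GRCh38. The 24 conditions were read in 2 gene expression and 2 hashing libraries, and every column was mapped (0 left out). The 5 genes, the gene lists and the cut of 20 UMIs were chosen with earlier results of these data known.

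Kept barcodes had 1000 genes or more and no more than 20% of UMIs from mitochondrial genes. A tag pair was the top 2 hashtags, the second at least 3 times the third, if at least 100 barcodes had that pair on top. The 1110 kept barcodes without such a pair, doublets across cultures among them, were left out, and no other doublet caller was run. UMIs were summed per pair and divided by all gene UMIs of the pair to give CPM. Intervals are exact 95% Poisson (levels), conditional binomial (ratios) and exact binomial (shares) intervals and cover counting error only. A share of 0 is given with the limit of 3 counts. With 1 culture a condition and no label tying a tag pair to a condition, no test was possible. Calls on ranges and classes used a pseudocount of 10 CPM and a mean of at least 20 CPM. Named genes are the 5, all neighbours and interferon genes, the 4 most abundant of each list and the nearest profiles, beside those said to be picked later. Some values of a list of transcription factors are not reported here. The 4-fold call on ranges and the interval of a ratio were tested on simulated counts, and the other steps were not. The simulated counts were independent Poisson counts, so they do not cover UMIs clustered in a few cells. For the interval, the choice of the highest and lowest pair was not simulated either. Alternatives covered filters, tag margins, scaling (TMM of edgeR 4.0.16), cuts and each pair left out. Python 3.11.15, numpy 2.4.6, scipy 1.17.1 and R 4.3.3 were used.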

Additional observations from a re-analysis of the deposited data

Results flagged for a closer look

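The levels above came from kept cells with a clear tag pair. Barcodes outside them also held UMIs of the 5 genes, above the limit that a count of 0 allows. The summed level was 241 CPM (235 to 248) in 1110 kept barcodes without a clear tag pair, of which 2.79% had at least 20 UMIs of the 5 genes, and 282 CPM in the cells with a pair. It was 249 CPM (237 to 261) in 1191 barcodes with over 20% mitochondrial UMIs and at least 1000 genes, at a median depth of 4543 UMIs. Among those with a tag pair, it ran from 38.2 CPM in HTO6/HTO10 to 561 CPM in HTO6/HTO8. It was 94.9 CPM (86.6 to 104) in 3061 barcodes with under 1000 genes, whose median mitochondrial share was 62.9%.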

How the results depend on the processing

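Of 156 values recomputed under other settings, 110 moved by less than their counting error or by under 1.5 times for counts, and 46 moved further. The pair that held a highest or lowest value also changed under some settings. With a stricter filter of 2000 genes or more and no more than 10% mitochondrial UMIs, the IFIT2 ratio was 63.8 and that of IFIT1 30.0, the highest share of high cells was 15% (in HTO5/HTO9), the highest level of the remaining cells 381 CPM (in HTO3/HTO9), and 69 high cells were left, with 7 of the cells that had an IFNL1 UMI. With a tag margin of 2 the IFIT3 ratio was 29.5 and the highest share of UMIs in high cells 76.4%. With a margin of 5 the RSAD2 ratio was 98.5. A pseudocount of 1 gave 402 genes ranging by 4-fold, a pseudocount of 50 gave 82 with 1 of the 5 genes, and a minimum mean of 100 CPM gave 94, also with 1. Counting high cells from 10 UMIs gave 381 cells, a highest share of 25.9%, remaining cells at 338 CPM in the highest pair (HTO5/HTO8) and 22.5 CPM in the lowest, and 85.9% and 6.88% as the highest and lowest share of UMIs. From 40 UMIs it gave 58 cells, 3.07%, 557 CPM, 51.7% and a ratio of 17.1 in the remaining cells. From 2000 CPM it gave 114 cells, 478 CPM and 63.2%. With at least 5 UMIs summed over IFIT1, IFIT2 and RSAD2, the values were 15.4%, 395 CPM, 84.7% and 4.17%. That alternative was chosen after the data were seen. NF-kappaB targets 2-fold higher numbered 0 from 10 UMIs, 3 from 40, 2 from 2000 CPM and 2 from those 3 genes. Cells rich in 1 gene, counted from 3 and from 10 UMIs, numbered 131 and 16 for IFIT1, 200 and 51 for IFIT2, 1661 and 252 for IFIT3, 71 and 0 for IFIT5, and 88 and 13 for RSAD2. Of the 10 nearest profiles, 4 were shared with a pseudocount of 1 and 2 after scaling. Apart from the choice of threshold itself, the cause of these moves was not tested.

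With each pair left out in turn, the ratio was 9.33 to 15.8 for IFIT1, 13.5 to 19.6 for IFIT2, 11.3 to 41.5 for IFIT3, 4.68 to 5.50 for IFIT5, 25.3 to 31.8 for RSAD2 and 8.16 to 22.4 for their sum. The members past 4-fold stayed at 3 to 3, and all genes at 168 to 238, the lowest without HTO3/HTO9. The highest share of high cells was 9.47 to 10.1% and the lowest 0 to 0.515%. The remaining cells were at 375 to 442 CPM in the highest pair and 32.6 to 42.4 CPM in the lowest, a ratio of 10.4 to 13.5. The highest share of UMIs in high cells was 57.3 to 80.0%, the lowest value without HTO2/HTO9, and the lowest share 0 to 4.17%. No paired analysis was possible because each condition was 1 culture and the tag pairs carry no replicate number. RSAD2 had no ratio under the stricter barcode filter, where a pair had no UMI. Depth limits RSAD2 most: 3 UMIs set its lowest level.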

Other observations

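Cells with at least 10 UMIs of KRT81, a hair keratin, were set apart without use of the 5 genes. The summed level of the 5 was 135 CPM (120.4 to 151) in these 128 cells and 287 CPM (283 to 291) in the other 5170 cells. None of the 128 had at least 20 UMIs of the 5 genes, against 175 of 5170 (3.38%), and 0 of 128 cells allows a share of up to 2.34%. Median depth was 17990 UMIs in the KRT81 cells and 13152 in the others, and the median mitochondrial share 5.64% and 10.6%. IFIT5 was at 26.6 CPM in the KRT81 cells and 26.7 CPM in the others, while IFIT3 was at 75.2 CPM and 195 CPM and RSAD2, from 2 UMIs, at 0.859 CPM and 10.8 CPM. The part of depth and of the spread of KRT81 cells over tag pairs was not tested.

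The largest drop in the high cells of the 7 pairs was that of S100A9, a calcium-binding protein of the innate response, at 7.69 CPM in high cells and 72.1 CPM in the remaining cells, lower in all 7 pairs. It had a UMI in 3 of 103 high cells and in 78 of 1486 remaining cells. KRT81, the marker of the cells set apart above, was next, at 15.5 CPM in high cells and 86.9 CPM in the remaining cells. Similar shares of cells had a KRT81 UMI, 10 of 103 high cells and 130 of 1486 remaining cells. In 1 of the 7 pairs KRT81 was higher in the high cells. The part of the KRT81 cells in the drop of S100A9 was not tested. CYP1B1, a cytochrome P450, was at 20.6 CPM in high cells and 76.0 CPM in the remaining cells, and AREG, a ligand of the EGF receptor, at 127 CPM and 298 CPM, both lower in all 7 pairs. IGFBP6, a binding protein of insulin-like growth factors, was at 366 CPM in high cells and 66.0 CPM in the remaining cells, and PMAIP1 (NOXA), a pro-death member of the BCL2 family, at 477 CPM and 167 CPM, both higher in all 7 pairs. These genes were picked after their values were seen.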
